A study of Mus musculus with 14 samples.

Results

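Expression of 10 genes that set the passage of cells through the G1 phase of the cell cycle was examined in mouse liver from before puberty to young adulthood. The genes were the D-type cyclins Ccnd1, Ccnd2 and Ccnd3, the E-type cyclins Ccne1 and Ccne2, the cyclin-dependent kinases Cdk4 and Cdk2, and the kinase inhibitors Cdkn1a (p21), Cdkn1b (p27) and Cdkn2c (p18). They were found through the RefSeq accession of each array probe, which gave 15 probes for these 10 of 19751 named genes. All 10 passed the filter on dim signals that left 15303 named genes for testing.

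A cell in G1 commits to DNA replication when D-type cyclins, bound to CDK4 or CDK6, and then E-type cyclins, bound to CDK2, phosphorylate the retinoblastoma protein and so free E2F transcription factors. Inhibitors of the CIP/KIP family (p21, p27) bind cyclin-CDK complexes, and those of the INK4 family (p18 among them) bind CDK4 and CDK6. Hepatocytes divide while the young liver grows, are mostly quiescent in the adult, and use cyclin D1 to leave quiescence after partial hepatectomy.

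Liver RNA came from untreated CD-1 mice, an outbred stock, of 6 groups. These were males and females of 3 wk (M3, F3), 4 wk (M4, F4) and 8 wk (M8, F8), with 10 mice per group at 3 wk and 12 at 4 and 8 wk. Each group gave 2 pools of whole-liver RNA, of 5 mice at 3 wk and of 6 mice at 4 and 8 wk, so that the spread between arrays is that between pools and not between mice. The pools were compared in 7 competitive hybridizations: male with female at each age (M3/F3, M4/F4 and M8/F8), and 8 wk with either younger age in male liver (M8/M3 and M8/M4) and in female liver (F8/F3 and F8/F4). Each was run on 2 arrays with separate pools and exchanged dyes, 14 arrays in all.

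A value is the log2 of the expression ratio, male over female or older over younger, on which 0 is no difference. A gene was called up or down regulated at a ratio above 1.5 or below 0.667 and an adjusted p below 0.05 in limma, provided that 1 group or more passed the well-above-background condition on both arrays. That condition is the scanner software's mark for a signal distinct from its surroundings. Between 55.2% and 77.2% of 43020 spots per channel carried it, and no spot was saturated. Where several probes represented a gene, the brightest stood for it. The Y-linked genes Ddx3y, Eif2s3y, Kdm5d and Uty were higher in male liver and Xist lower in all 3 sex comparisons, and the 7 hepatocyte markers (Alb and Ttr among them) were well above background in 28 of 28 channels. Same-numbered pools appeared to have been reused between comparisons. The difference between replicates that the age arrays gave correlated over probes with that from the sex arrays, with r = 0.913 around the loop of 3 wk and 8 wk groups and r = 0.904 around that of 4 and 8 wk. The comparisons therefore share RNA pools (M8 in M8/M3, M8/M4 and M8/F8, for example) and are not independent of each other.

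The promoters of Ccne1, Cdk2, Cdkn1a and Cdkn2c are shown because these genes were called in at least 1 comparison and RefSeq sequence was at hand. Each run is the 250 bases before a start site on the gene's strand, from RefSeq for GRCm38.p6. Ccne1 lies on the minus strand at chr7:38107491-38107740. Cdk2 lies on the minus strand at chr10:128705052-128705301. Cdkn1a has a start site at chr17:29090729-29090978 and another at chr17:29093519-29093768, both on the plus strand. Cdkn2c lies on the minus strand at chr4:109666757-109667006, and its other start site is not shown. Capitals mark matches, on either strand, to an E2F motif (TTTCCCGC or TTTGGCGC), the CHR element (TTTGAA), the CCAAT box or the GC box (GGGCGG); the GC box and the TATA box (TATAAA) were added once the values were known.
Ccne1: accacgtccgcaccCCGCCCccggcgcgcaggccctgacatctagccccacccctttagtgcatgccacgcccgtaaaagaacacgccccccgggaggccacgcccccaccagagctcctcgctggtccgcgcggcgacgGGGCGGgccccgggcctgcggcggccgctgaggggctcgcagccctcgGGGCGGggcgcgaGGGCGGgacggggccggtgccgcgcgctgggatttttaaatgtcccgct
Cdk2: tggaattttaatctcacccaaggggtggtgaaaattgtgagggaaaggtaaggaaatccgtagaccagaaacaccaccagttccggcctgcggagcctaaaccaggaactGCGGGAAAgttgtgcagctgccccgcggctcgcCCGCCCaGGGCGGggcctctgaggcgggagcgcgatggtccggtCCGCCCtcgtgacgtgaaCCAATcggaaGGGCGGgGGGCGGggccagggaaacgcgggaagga
Cdkn1a, start 1: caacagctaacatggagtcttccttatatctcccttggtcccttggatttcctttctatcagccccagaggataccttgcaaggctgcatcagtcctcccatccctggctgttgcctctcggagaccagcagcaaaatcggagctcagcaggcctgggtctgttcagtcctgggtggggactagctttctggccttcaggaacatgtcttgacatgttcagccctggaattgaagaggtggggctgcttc
Cdkn1a, start 2: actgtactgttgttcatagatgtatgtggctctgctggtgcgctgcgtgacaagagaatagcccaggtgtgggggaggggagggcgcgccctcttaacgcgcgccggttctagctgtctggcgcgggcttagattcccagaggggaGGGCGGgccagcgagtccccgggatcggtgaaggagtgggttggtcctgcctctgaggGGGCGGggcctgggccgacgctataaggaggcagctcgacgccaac
Cdkn2c, start 1: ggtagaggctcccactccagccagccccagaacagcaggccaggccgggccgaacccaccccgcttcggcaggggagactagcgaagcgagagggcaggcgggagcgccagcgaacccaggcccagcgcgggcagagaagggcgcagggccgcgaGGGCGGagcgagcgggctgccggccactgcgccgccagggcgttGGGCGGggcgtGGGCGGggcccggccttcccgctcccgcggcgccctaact

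An E2F motif was found in the Cdk2 promoter alone among the 10 start sites of the 7 members in the table, 140 bases before the start and on the opposite strand, where its letters read GCGGGAAA. Either E2F motif occurred in 1.56% of all 32851 promoters (windows of 250 bases before and 50 after the start). The Cdk2 promoter also held a CCAAT box, a motif of 37.4% of promoters, and 5 GC boxes upstream of the start, a motif of 35.7%. The Ccne1 promoter held 4 GC boxes, Cdkn2c start 1 held 3, Cdkn1a start 2 held 2 and Cdkn1a start 1 held none of the motifs. No member promoter held the CHR element (17.9% of promoters) or the TATA box (13.6%). The table has no promoter of Ccnd1, Ccnd2 or Ccne2.

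From 3 to 8 wk, 5 of the 10 genes were down regulated in male liver and 3 in female liver. The 3 genes Ccne1, Ccne2 and Cdkn1a fell in both sexes, and Ccnd1 and Cdkn2c were called in male liver. Of all named genes tested, 17.9% were called in M8/M3, 10.1% being lower, and 12.2% in F8/F3, 6.87% being lower. From 4 to 8 wk, 4 genes fell and 1 (Cdk2) rose in M8/M4, where 11.5% of all genes were called, 6.76% lower and 4.69% higher. In F8/F4, 3 genes fell, with 6.55% of all genes called and 3.95% lower. The median log2 ratio of the 10 genes was -0.61 from 3 wk and -0.46 from 4 wk in male liver, and -0.37 and -0.33 in female liver, while that of all genes lay between 0.01 and 0.02. Ccnd2, Ccnd3, Cdk4 and Cdkn1b were called in no comparison.

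**Figure D1:**
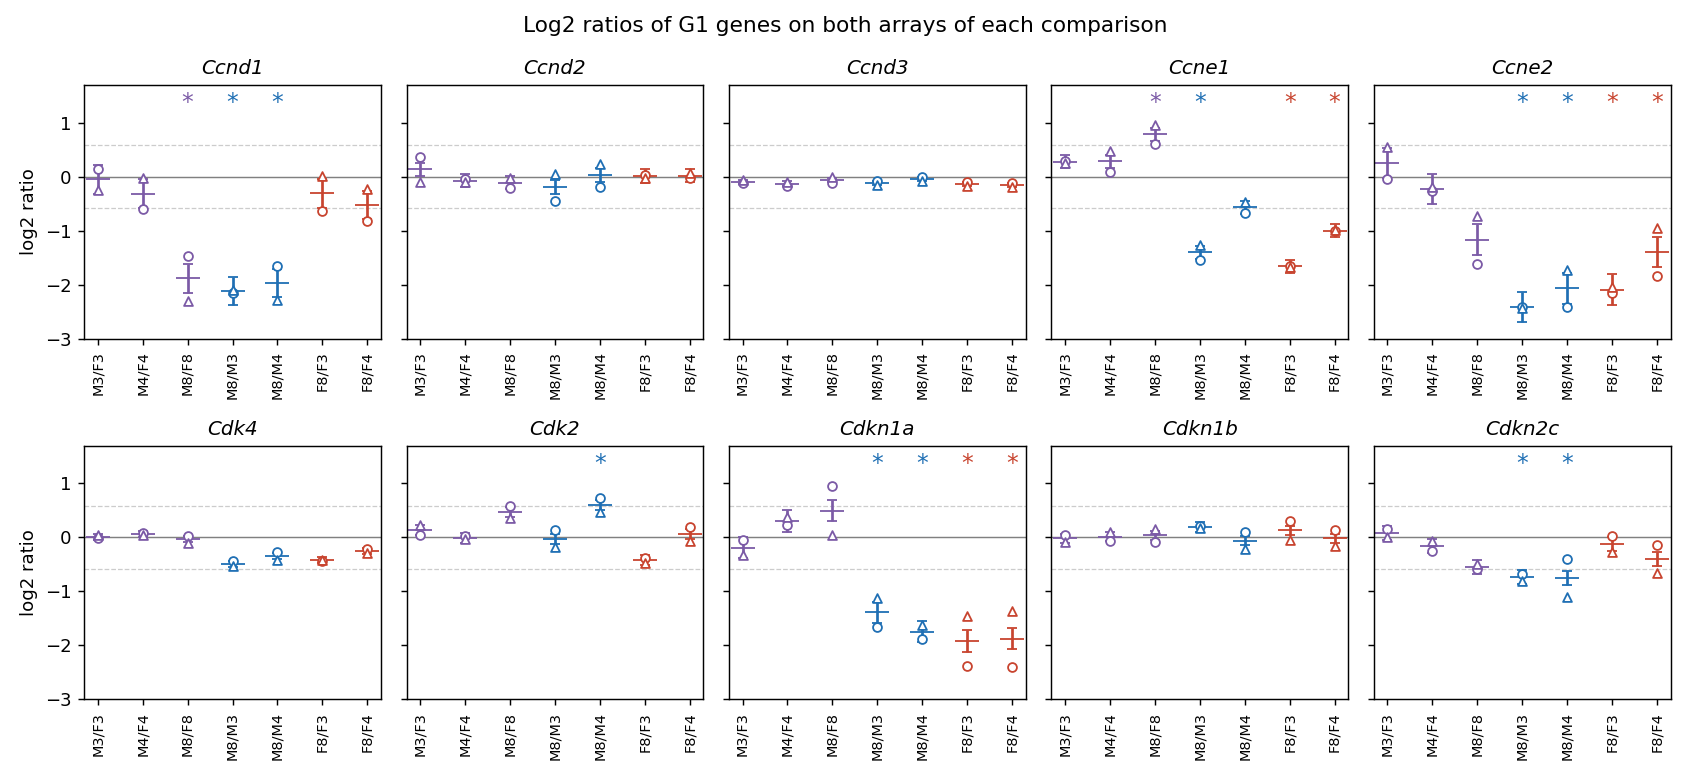
Log2 expression ratios of the 10 genes in the 7 comparisons (purple, male over female; blue, 8 wk over the younger age in male liver; red, the same in female liver). Circles and triangles are the arrays of replicate 1 and 2, horizontal bars the fitted ratio with its standard error, dashed lines a 1.5-fold difference, and asterisks the called ratios. The M8/M3 ratios of Ccnd1 are -2.15 and -2.09, whereas the fitted ratios of Ccnd2 and Cdkn1b lie between -0.19 and 0.19 in all 7 comparisons.

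Ccnd1 encodes cyclin D1, which couples growth factor signals to CDK4. It was lower in M8 than in every other group. The log2 ratios were -2.15 and -2.09 on the arrays of M8/M3, and -1.66 and -2.28 on those of M8/M4. All 4 arrays were past 1.5-fold. The fitted M8/M3 ratio of -2.12 ± 0.26 (SE, n = 2 arrays) was a 4.35-fold lower expression at 8 wk (adjusted p = 0.00133, limma), and M8/M4 gave 3.91-fold (adjusted p = 0.00186). The female ratios were -0.63 and 0.01 from 3 wk and -0.81 and -0.22 from 4 wk. These differed between replicates by about as much as from 0, and the fitted values of -0.31 (95% interval -0.92 to 0.30, adjusted p = 0.471) and -0.52 (-1.13 to 0.09, adjusted p = 0.215) were not called.

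Accordingly, Ccnd1 was female-biased at 8 wk. The M8/F8 ratios were -1.46 and -2.30, both past 1.5-fold, and the fitted ratio of -1.88 ± 0.26 was a 3.69-fold lower expression in male liver (adjusted p = 0.00224, limma). In younger mice the replicates of M3/F3 (0.15 and -0.25) lay on both sides of 0, and those of M4/F4 were -0.60 and -0.03. The level of the Ccnd1 probe, as log2 normalized intensity, was 10.41 and 10.40 in the M8 pools and between 11.88 and 12.91 in the 10 pools of the other groups, so M8 did not overlap any of them. The next lowest group, F8 (11.88 and 12.57), overlapped M4 (12.12 and 12.91), M3 (12.66 and 12.49) and F3 (12.53 and 12.66). F4 had the highest mean (12.78 and 12.90 in its pools), within the range of the M4 pools.

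The fall of Ccnd1 with age differed between the sexes. M8/M3 minus F8/F3 was -1.81 ± 0.37 (95% interval -2.67 to -0.95; adjusted p = 0.0308, limma), the only such difference called among the 10 genes, against 4.16% of all genes in either direction and 2.16% in this direction. The sex arrays gave -1.83 for the same quantity from the same pools. Other members differed less between the routes, such as Cdkn2c (-0.620 from the age arrays and -0.621 from the sex arrays), or more, such as Ccne1 (0.26 and 0.51). The dim Ccne2 gave -0.32 and -1.42, but the sex route includes M8/F8, where neither sex was well above background for it. The call was lost when any array of M8/M3 or F8/F3 was left out (adjusted p 0.094 to 0.188, differences -2.07 to -1.55), with a dye term for each scan day (0.0502) and when all probes were adjusted (0.0563). M8/M4 minus F8/F4 was -1.45 ± 0.37 for Ccnd1 (adjusted p = 0.113, limma), and the sex arrays gave -1.57. It was called with 6 group means (adjusted p = 0.002, limma). M8/M3 and F8/F3 were scanned on different days, so this difference and the scan day cannot be told apart on the age arrays, while all 3 sex comparisons shared a scan day.

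**Figure D2:**
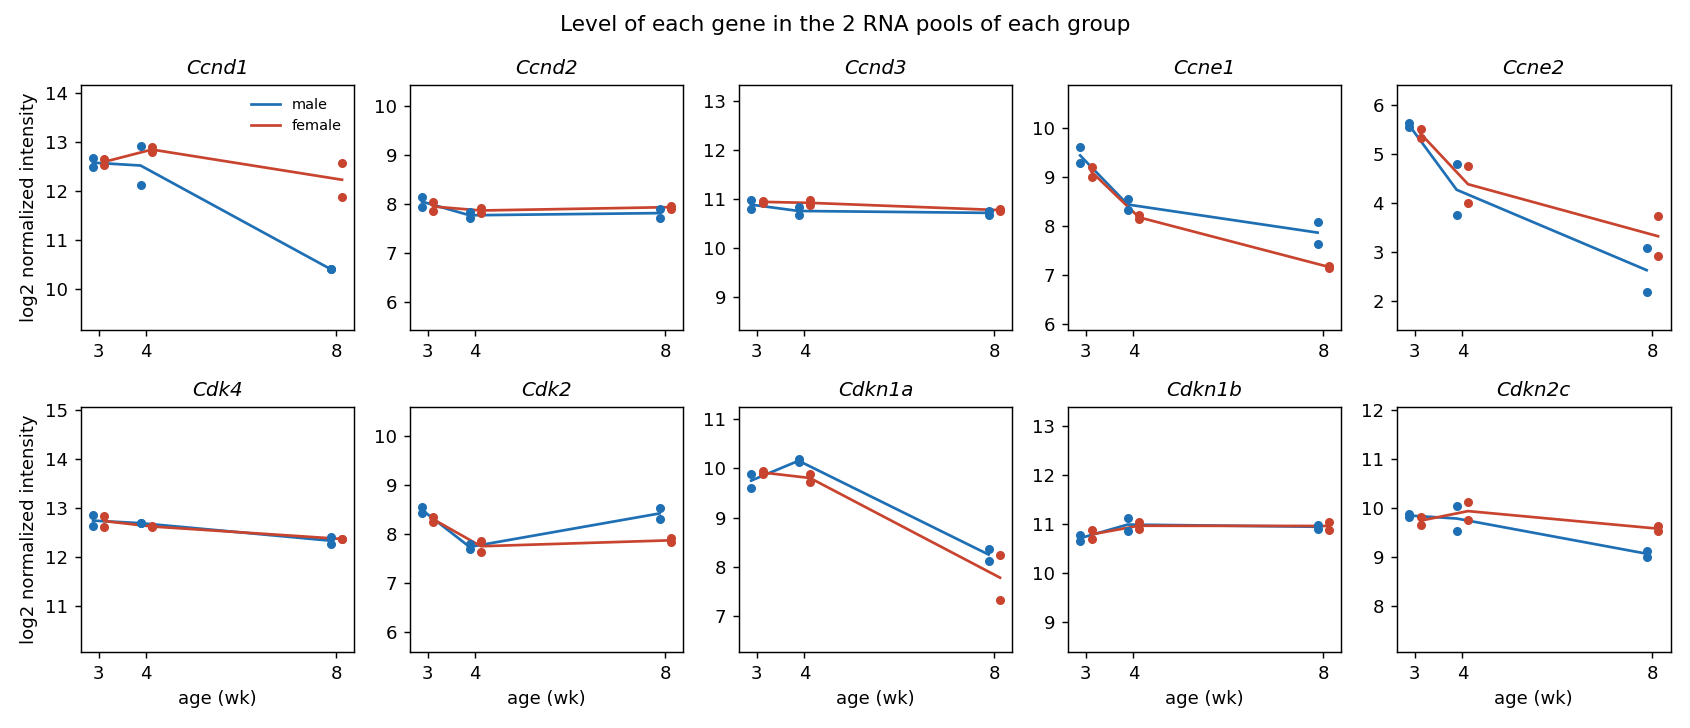
Log2 normalized intensity of each gene's brightest probe by age in wk. Points are the 2 RNA pools of each group (blue, male; red, female), lines join group means, and each panel spans the same range, placed at the gene's own level. Ccnd1 at 8 wk is at 10.4 in both male pools and at 11.9 and 12.6 in the female pools.

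Ccnd2 and Ccnd3 encode the other D-type cyclins. The fitted Ccnd2 ratios ranged from -0.19 (M8/M3) to 0.13 (M3/F3), with a standard error of 0.13 and adjusted p of 0.336 or more in limma. Its levels in all 6 groups overlapped those of their neighbours in order, from 8.04 ± 0.14 (SD, n = 2 pools) in M3 to 7.76 ± 0.09 in M4. Ccnd3 had small ratios with a small error. Its F8/F3 ratios were -0.09 and -0.18 and its F8/F4 ratios -0.11 and -0.19, all below 0, and the fitted -0.13 and -0.15 (adjusted p = 0.0448 and 0.0289) were at most 1.11-fold. The other Ccnd3 probe, of a second transcript, gave -0.05 and 0.06 in these comparisons and was called in none. Ccnd1 was the only D-type cyclin called.

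Ccne1 encodes cyclin E1, a partner of CDK2 at the start of S phase. It fell with age in both sexes. The F8/F3 ratios were -1.65 and -1.67 and the M8/M3 ratios -1.54 and -1.27. Replicates were close together and all past 1.5-fold, and the fitted values were 3.16-fold lower in F8 (-1.66 ± 0.12; adjusted p = 0.000113, limma) and 2.64-fold lower in M8 (-1.40 ± 0.12; adjusted p = 0.000231). From 4 to 8 wk the ratios were -1.01 and -0.99 in female liver, a 2.00-fold fall (adjusted p = 0.000999). Those of male liver, -0.67 and -0.47, gave 1.48-fold (adjusted p = 0.0117), just under the 1.5-fold threshold, and 1 array alone (without replicate 2) gave a called -0.70. The differences between the sexes in these age changes were 0.26 (95% interval -0.12 to 0.64, adjusted p = 0.41) and 0.43 (0.05 to 0.81, adjusted p = 0.274) and were not called.

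Ccne1 was higher in male liver at 8 wk, the opposite direction from Ccnd1. The M8/F8 ratios were 0.61 and 0.96, both above 1.5-fold, and the fitted 0.79 ± 0.12 was 1.72-fold (adjusted p = 0.00291, limma). The ratios of 0.29 and 0.26 in M3/F3 and of 0.09 and 0.48 in M4/F4 were on the same side, so that male liver was higher on 6 of 6 sex arrays, but the younger ages were not called (adjusted p = 0.138 and 0.127). The levels stepped down from M3 (9.43 ± 0.23, SD, n = 2 pools) through F3 (9.10), M4 (8.43), F4 (8.17) and M8 (7.86) to F8 (7.16 ± 0.02), and no neighbouring pair in this order overlapped. Also higher in male liver at 8 wk were the erythroid marker Alas2 (1.89, called) and the summed intensities of the erythroid markers (43510 and 46130 in the M8 pools, 36093.5 and 39396 in those of F8) and of the bile duct markers (4880 and 5619, 3163 and 3530). Their part in the Ccne1 ratio was not tested. A second, dimmer Ccne1 probe (mean signal 41.2, against 347) had replicates that disagreed, such as -3.05 and 0.54 in M8/M4 and 1.40 and -0.89 in M8/F8. It was called lower in F8/F3 (-1.74) and F8/F4 (-1.38) and was not called in M8/F8 (0.25), M8/M3 (-0.998) or M8/M4 (-1.25). Averaged over both probes, the M8/F8 ratio was 0.52 (adjusted p = 0.138), not called, and the M8/M4 ratio was -0.91 (adjusted p = 0.0215), called.

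Ccne2 encodes cyclin E2, and its probe was dim (mean signal 24.5). The M8/M3 ratios were -2.41 and -2.42. M3 was well above background on both arrays and M8 on none, so that expression was at least 4.27-fold lower in M8 (adjusted p = 0.00101, limma), with the M8 signal set no lower than the dimmest signal well above background on each array. The F8/F3 ratios were -2.15 and -2.04, with F8 well above background on 1 of 2 arrays (fitted -2.09, adjusted p = 0.00191). The ratios from 4 wk were -2.41 and -1.73 in M8/M4 (fitted -2.07, adjusted p = 0.00199) and -1.84 and -0.95 in F8/F4 (fitted -1.39, adjusted p = 0.0111), again with the 8 wk group well above background on 1 of 2 arrays. All 8 age arrays showed a fall of more than 1.5-fold. With another background correction (normexp, which adds an offset to dim signals, then loess) the ratios shrank to -0.46 in M8/M3 and -0.57 in F8/F4, neither called, and to -0.86 in F8/F3 and -0.67 in M8/M4, both still called. F8/F4 was also not called without its replicate 1 (-0.88, adjusted p = 0.15) or with error-weighted averages (-1.25). None of the 4 age ratios of Ccne2 would be called if both groups had to be well above background. In M8/F8 (-1.61 and -0.72) neither sex was well above background, and no fold is given.

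Cdk4, the kinase of the D-type cyclins, fell slightly with age in both sexes. The ratios were -0.44 and -0.54 in M8/M3 and -0.43 and -0.41 in F8/F3. All were below 0, and the fitted 1.40-fold (adjusted p = 0.000896, limma) and 1.34-fold (adjusted p = 0.00175) differences were under the 1.5-fold threshold. From 4 wk the fall was 1.27-fold in male (adjusted p = 0.00424) and 1.20-fold in female liver (adjusted p = 0.0141). The 2 other Cdk4 probes gave falls of 1.14- to 1.39-fold in the same comparisons. The fitted sex ratios of Cdk4 lay between -0.03 and 0.06, with a standard error of 0.06.

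Cdk2, the kinase of the E-type cyclins, rose in male liver from 4 to 8 wk. The M8/M4 ratios were 0.74 and 0.48, both above 0, and the fitted 0.61 ± 0.09 was a 1.53-fold rise (adjusted p = 0.00345, limma). It was not called without M8/M4 replicate 1 (0.53, 1 array) or with normexp and loess (0.48). The M8/M3 ratios, 0.14 and -0.19, lay on both sides of 0. In female liver the F8/F3 ratios were -0.38 and -0.47 (1.34-fold lower, adjusted p = 0.0161) and the F8/F4 ratios 0.19 and -0.06. Male liver was higher at 8 wk on both arrays (0.58 and 0.36; 1.39-fold, adjusted p = 0.0103), under the threshold, though called without M8/F8 replicate 2 (0.67). The levels of M3 (8.43 and 8.54), M8 (8.53 and 8.30) and F3 (8.35 and 8.24) overlapped in that order and lay above those of F8 (7.91 and 7.83), F4 (7.63 and 7.86) and M4 (7.68 and 7.79). The Cdk2 promoter printed above is the one with the E2F motif.

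Cdkn1a encodes p21, an inhibitor of CDK2 complexes and a classical target of p53. It fell from either younger age to adulthood in male and female liver alike, on 8 of 8 arrays. The M8/M3 ratios were -1.65 and -1.12, and the F8/F3 ratios -2.38 and -1.46. Both were past 1.5-fold, with fitted values of 2.61-fold in male liver (-1.39 ± 0.20; adjusted p = 0.00247, limma) and 3.78-fold in female liver (-1.92 ± 0.20; adjusted p = 0.000586). From 4 wk the ratios were -1.87 and -1.61 in male liver (3.35-fold, adjusted p = 0.000894), and -2.39 and -1.36 in female liver (3.67-fold, adjusted p = 0.000647). Replicate 1 gave the larger fall in all 4 age comparisons. The F8 pools differed most, at 7.32 and 8.23, against 8.12 and 8.37 in M8 and 9.61 to 10.19 in the younger groups, which the 8 wk groups did not overlap.

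The sex ratios of Cdkn1a at 8 wk, 0.95 and 0.04, were both above 0 but far apart (fitted 0.49, adjusted p = 0.122). The age change differed between the sexes by 0.53 (95% interval -0.12 to 1.18, adjusted p = 0.311) from 3 wk, called with 6 group means (0.61, adjusted p = 0.0248), and by 0.13 (-0.52 to 0.78, adjusted p = 0.896) from 4 wk. A second Cdkn1a probe, which carries the accession of another transcript, was dim (mean signal 24.3, against 659). Its M8/M3 ratios were 0.54 and -0.61 and its F8/F3 ratios -0.58 and 0.72, on both sides of 0. It was not called in any comparison, and averaging both probes gave -0.71 in M8/M3, -0.74 in M8/M4 and -0.77 in F8/F4, none of them called. F8/F3 stayed called with both probes averaged, as under all 29 alternatives. With error-weighted averages, an approximation of the study's own procedure with p below 0.0001, F8/F4 was not called (-1.76). The promoters before both Cdkn1a start sites are printed above; the files do not tie either probe to a start.

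Cdkn1b encodes p27, which accumulates in quiescent cells. Its fitted ratios lay between -0.06 and 0.19 in the 7 comparisons, with a standard error of 0.09. The M8/M3 ratios were 0.22 and 0.17 (fitted 0.19, 95% interval -0.01 to 0.39, adjusted p = 0.16, limma), and the F8/F3 ratios 0.31 and -0.05. The M8, F8, F4 and M4 levels (10.94 to 10.98) overlapped in order and F3 was lower, at 10.78, as was M3, with 10.64 and 10.77 in its pools.

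Cdkn2c encodes p18, an INK4 inhibitor of CDK4 and CDK6. It fell in male liver, with ratios of -0.67 and -0.80 in M8/M3 and -0.41 and -1.10 in M8/M4. Of these 4 arrays 3 were past 1.5-fold, and the fitted falls were 1.67-fold (-0.74 ± 0.13; adjusted p = 0.00642, limma) and 1.69-fold (adjusted p = 0.00584). M8/M3 was not called without its replicate 1 (-0.67, adjusted p = 0.07) or with normexp and loess (-0.57), and M8/M4 was not called without its replicate 2 (-0.50) or with error-weighted averages (-0.72). In female liver the F8/F3 ratios were 0.04 and -0.28, on both sides of 0, and the F8/F4 ratios -0.14 and -0.65 (fitted -0.40, adjusted p = 0.0705). The M8/F8 ratios of -0.59 and -0.50 gave 1.45-fold (adjusted p = 0.0233), under the threshold. The difference between the age changes of the sexes was -0.62 (95% interval -1.05 to -0.19), with an adjusted p of 0.0975. It was called with a dye term for each scan day (adjusted p = 0.032) and with 6 group means (0.003). Cdkn2c and Ccnd1 thus had their lowest level in M8, where neither overlapped F8.

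**Figure D3:**
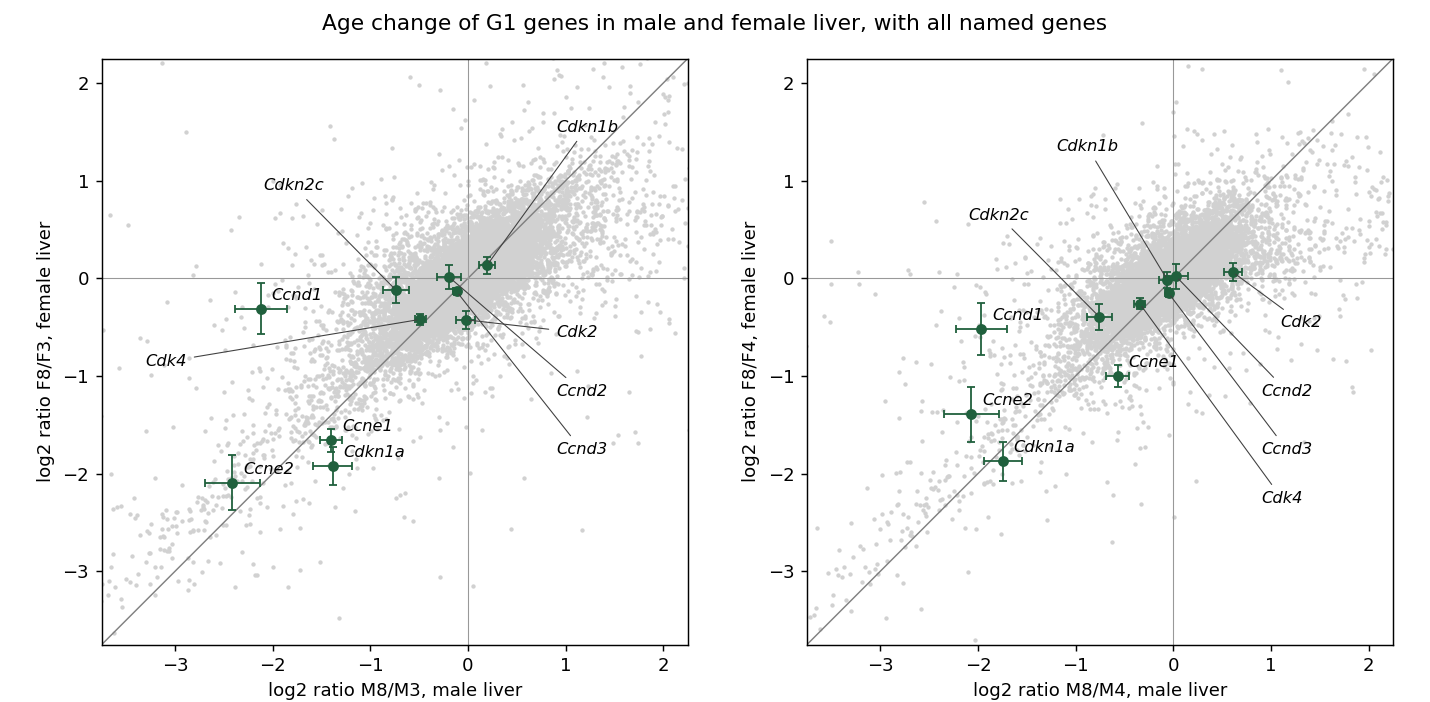
Age change in female liver against that in male liver, from 3 to 8 wk (left) and from 4 to 8 wk (right), as log2 ratios. Green points are the 10 genes with standard errors, grey points all named genes tested (those beyond the axes are not drawn), and the diagonal marks equal change. Ccnd1 lies farthest from the diagonal among the 10, at -2.12 in male and -0.31 in female liver on the left.

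None of the 10 was called in M3/F3 or in M4/F4 with limma, where 0.634% and 1.63% of all genes were called. At an unadjusted p below 0.05 there were 2 in each, Ccne1 and Ccnd3, and the error-weighted averages called 0. In M8/F8 the 2 called genes were Ccne1, higher in male liver as were 2.56% of all genes, and Ccnd1, lower as were 3.72%, with 6.27% of all genes called in either direction. Of M8/M4 minus F8/F4, 0 of 10 were called with limma (1.78% of all genes) and 3 passed an unadjusted p of 0.05, Ccnd1, Ccne1 and Cdk2. The error-weighted averages again called 0.

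Between 3 and 4 wk, which no array compared directly, the ratio of both age comparisons gave a change of -0.83 in male (adjusted p = 0.0846, limma) and -0.66 in female liver (adjusted p = 0.205) for Ccne1. Cdk2 gave -0.63 (adjusted p = 0.0915) and -0.49 (adjusted p = 0.243). No member was called in M4/M3 (0.333% of all genes) or F4/F3 (0.131%), and these 2 genes were the ones with an unadjusted p below 0.05 in each. The error-weighted averages called 0. With the reuse of pools in the model, both were called in male liver (adjusted p = 0.0205 for Ccne1 and 0.0238 for Cdk2), and with 6 group means in place of 7 comparisons Ccne1 was called in both sexes. In the other 8 genes the fitted change ranged from -0.70 (Ccne2, F4/F3) to 0.36 (Cdkn1a, M4/M3).

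The members that changed did so beside much of the cell cycle. The genes of G2 and M phase fell in all 4 age comparisons, 14 of 14 in each, and their median from 3 to 8 wk was -3.47 in male liver (-3.22 with Aurkb at its bound) and -3.15 in female liver. Bub1 of the spindle checkpoint fell by 4.71 on the log2 scale in M8/M3 and was at -4.28 in F8/F3. Aurkb, a mitotic kinase, was well above background at 3 wk and on no array of these comparisons at 8 wk, and was at least 9.11-fold lower in male (adjusted p = 6.62e-05, limma) and at least 9.999-fold lower in female liver (adjusted p = 9.59e-05). Of 16 S phase genes that E2F factors are known to drive, 15 fell from 3 wk and 10 from 4 wk in male liver, and 13 and 11 in female liver. Their medians were -1.66 (M8/M3) and -1.43 (F8/F3). Among those that fell were the replication licensing gene Cdc6 and Mcm6, a subunit of the replicative helicase (-2.72 in M8/M3, and -2.25 in F8/F3). Cdc6 too was not well above background at 8 wk, and was at least 13.01-fold lower in M8 (adjusted p = 4.66e-05, limma) and at least 12.1-fold lower in F8 (adjusted p = 9.84e-05). The medians of the 10 G1 genes, -0.61 and -0.37, were nearer to 0 than these.

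Among all genes tested, 17.9% were called in M8/M3 (10.1% lower) and 12.2% in F8/F3 (6.87% lower). Of 13 genes of the retinoblastoma and E2F families, 5 fell and 2 rose in M8/M3, and 5 fell and 1 rose in F8/F3. From 4 wk, 4 fell and 1 rose in male liver and 4 fell in female liver, where 6.76% and 3.95% of all genes were lower. Those that fell most in M8/M3 were E2f7, an E2F repressor made in S phase (-2.01 in male and -1.76 in female liver), and Rbl1, which encodes p107 (-1.55 and -0.996). Those that rose were Rbl2, which encodes p130, the family member typical of quiescent cells (0.88 and 0.69), and Rb1 itself (0.65 and, not called, 0.32). Of 12 tested genes among 14 other G1/S cyclins, kinases and inhibitors, 4 fell and 1 rose in M8/M3, and 5 fell and 1 rose in F8/F3. Cyclin A2 (Ccna2, also on the G2 and M list) fell most in both sexes (-3.69 and -3.25), followed in M8/M3 by the CIP/KIP inhibitor p57 (Cdkn1c; -1.57, and -0.72 in F8/F3). The INK4 inhibitor p15 (Cdkn2b) rose (1.42 and 0.69). Kinase inhibitors thus went both ways with age, p21, p57 and, in male liver, p18 lower and p15 higher.

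Of 15 p53 targets other than Cdkn1a, 2 fell and 1 rose in M8/M3, where 17.9% of all genes were called, and 2 fell and 2 rose in F8/F3, where 12.2% were. Their medians were 0.10 and 0.05. The falls were those of Btg2, an antiproliferative gene (-0.85 and -0.70), and Phlda3 (-0.84 and -0.74), and Trp53inp1 rose in M8/M3 (1.33; 0.57, not called, in F8/F3). Of 12 genes of mitogen and FoxO signalling, 1 rose in M8/M3, the liver transcription factor Cebpb (1.12; 0.41, not called, in F8/F3), and the medians were 0.25 and -0.09. Myc, an inducer of D-type cyclins, was at -1.01 ± 0.52 (SE) in M8/M3 and -0.21 ± 0.52 in F8/F3, not called in either (adjusted p = 0.224 and 0.834).

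**Figure D4:**
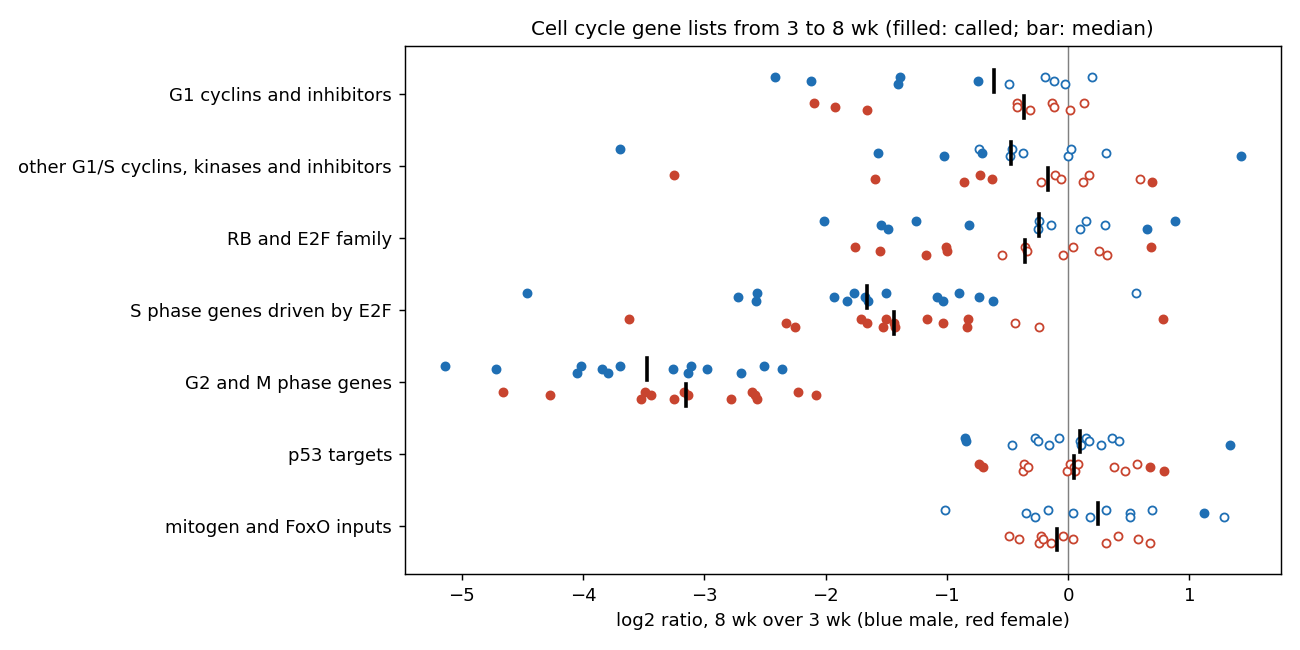
Log2 ratios of 8 wk over 3 wk for the 10 G1 genes and 6 other gene lists (blue, M8/M3; red, F8/F3; upper and lower line of each list). Each point is a gene, filled where it was called, and black bars are list medians. Genes not above background at 8 wk, such as Aurkb, are drawn at their fitted ratio. The medians of the G2 and M phase genes, -3.47 and -3.15, lie farthest from 0, and those of the G1 genes are -0.61 and -0.37.

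Whole liver holds other cells than hepatocytes, and in bulk RNA fewer cells of a type and less RNA per cell cannot be told apart. Of 5 erythroid genes tested, 4 fell in each of the 4 age comparisons, among them Epb42, which was well above background on no array of M8/M3 or F8/F3 at 8 wk and was at least 4.82-fold lower in male (adjusted p = 3.68e-05, limma) and at least 6.03-fold lower in female liver (adjusted p = 2.79e-05) than at 3 wk. The fifth, Alas2, was higher in M8/M3 (1.37) and at -0.27, not called, in F8/F3. The summed intensity of the list was 73472.5 and 76769 in the M3 pools and 43510 and 46130 in those of M8, and 70811 and 71166 in F3 against 36093.5 and 39396 in F8. Of 6 stellate and mesenchymal genes, 3 fell in each age comparison (Col1a1 at -2.25 and -1.93, Col3a1 at -2.19 and -1.70). Their sum was 88591 and 98046 in M3 against 41072 and 47795 in M8, and 86889 and 91921 in F3 against 49925 and 50896 in F8. The part of these cells in the age changes of Ccnd1, Ccne1, Ccne2, Cdkn1a and Cdkn2c was not tested.

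The share of all genes called lower was 10.1% in M8/M3, 6.87% in F8/F3 and 3.72% in M8/F8. Of 5 macrophage genes 2 fell in M8/M3 and 1 in F8/F3 (Marco at -2.20 and -1.58, Adgre1 at -0.86 and -0.37), and 3 were lower in male liver in M8/F8. Their sum was 15481 and 19986 in M8 and 24872.5 and 27147 in F8, so that it was lower in M8 as Ccnd1 was. It was lower in male liver also at 3 wk (23770 and 27303 against 29377 and 31475) and at 4 wk (25321 and 27372 against 31779 and 33804), ages at which Ccnd1 was not called between the sexes. Also lower in M8 than in F8, without overlap of the pools, were the sums of the stellate, the endothelial (28319 and 29830 against 31324 and 33033) and the B and T cell genes (611 and 633 against 647 and 742). In each of these lists 0 of 6 tested genes were called in M8/F8, with medians of -0.19, -0.11 and -0.22. The part of these cells in the Ccnd1 ratio was not tested. Of 5 bile duct genes 2 fell from 3 wk in each sex (Krt7 at -0.91 and -0.61), and of 6 endothelial genes 1 fell in each (Lyve1 at -1.20 and -0.94). The 6 tested B and T cell genes had medians of -0.21 and 0.13, and the seventh, Cd79a, was too dim to test. Of the 7 hepatocyte genes, Alb was lower (-0.71) and Serpina1a higher (0.83) in M8/M3, neither being called in F8/F3 (-0.25 and 0.08).

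The genes whose ratios over the 14 arrays were most like each called member were sought among 12304 genes or 1 fewer well above background in every channel, as a description, since arrays share pools. Nearest to Ccnd1 were Magel2 (r = 0.970) and Atp2b2 (r = 0.963), with M8/M3 ratios of -0.69 and -1.80 and F8/F3 ratios of 0.04 and -0.17. Nearest to Ccne1 were the serine synthesis gene Psat1 (r = 0.990) and Ddx39a (r = 0.987). Cdkn1a was nearest to Alg2 (r = 0.979). Ccne2 was nearest to Cebpg and Mgp (r = 0.945 and 0.936), Cdk2 to Letm1 and B9d1 (r = 0.934 and 0.916), and Cdkn2c to Psmg4 and Cd38 (r = 0.970 and 0.964). Among the members themselves the most alike were Ccne1 and Cdk4 (r = 0.865), Ccne1 and Cdkn1a (r = 0.850), and Ccne2 and Cdk4 (r = 0.828). Ccnd1 was most like Cdkn2c (r = 0.761), whereas Ccnd1 and Ccne1 had r = 0.026.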

How the data were processed

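The labels describe 14 two-colour Agilent arrays of CD-1 mouse liver RNA. The authors deposited, per the file headers, scanner output of Feature Extraction 10.7.1.1 with intensities per channel (the processed intensity being background-subtracted and dye-normalized by linear and LOWESS steps) and a log10 ratio of red over green with its error, a modelled score of precision. The value table of the series, also from the authors, held the same log10 values (largest difference 0). These ratios were converted here to log2 and oriented by the dye of each pool; the methods and the labels name the dyes differently, and the labels were used, which the Y-linked genes bore out. Non-uniform spots (at most 10 per array) were left out, 156 to 272 population outliers per array were kept, and spots of a probe were averaged. Names came from RefSeq accessions for 26055 of 39429 probes, and 13374 stayed unnamed. The grid was annotated to mm9 and the name table to GRCm38.p6, so no probe coordinates are given.

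Files were read with data.table, version 1.17.8. Ratios were fitted in R 4.3.3 with limma 3.58.1 (7 comparison coefficients and 1 dye term per probe, 6 residual and 1.73 prior degrees of freedom). Benjamini-Hochberg adjustment covered all probes tested and the 7 comparisons together, and all probes within each difference of comparisons. Probes tested (27392) were well above background on both arrays of at least 1 group in a comparison. Standard errors and 95% intervals come from this fit, and p-values measure the spread between arrays of pooled RNA. This fit leaves out the reuse of pools. Pool levels are log2 processed intensities after quantile normalization of the average signal, averaged over the arrays holding a pool. A fold against a group never above background was taken from such intensities as a lower bound. The study's error-weighted averages (p below 0.0001) were approximated with the deposited errors as an alternative. The normexp alternative (offset 50) used median signals, since the files used hold no mean signals. The 14 arrays lay on 4 slides and were scanned on 2 days, the sex comparisons and M8/M3 on the first and the rest on the second. Depth has no meaning for arrays, whose number limits the precision.

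The members and the other gene lists were chosen with earlier results of these data known. All 10 members were named. Of the other lists, the 2 called genes that rose most and the 2 that fell most in M8/M3 were named; Myc, Alas2 in female liver and Cd79a were added after their values were seen. For likeness, the 2 genes with the highest Pearson r were named. Some genes that these rules name are not reported here. Figures were drawn with Python 3.11.15 and matplotlib 3.10.9.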

Additional observations from a re-analysis of the deposited data

Results flagged for a closer look

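The age change of Ccnd1 differed between the sexes by the test of the difference itself. M8/M3 minus F8/F3 was -1.81 on the log2 scale (SE 0.37, adjusted p = 0.0308, limma), with M8/M3 at -2.12 and F8/F3 at -0.31, and both M8/M3 arrays lay below both F8/F3 arrays. The direction was the same under all 29 alternatives tried, from -2.07 to -1.55, and the call held under 22 of them. The 7 under which it did not were a dye term for each scan day, all probes adjusted, an unadjusted p below 0.0001, and the removal of any of the arrays of M8/M3 and F8/F3. Not all of the 22 could lose the call, since the value table of the series held the same values and dropping the ratio threshold removes no call.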

How the results depend on the processing

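Of 18 called ratios of the G1 genes in the 7 comparisons none changed direction under 29 alternatives, 14 of which left out an array. The number of G1 genes called moved by over 1.5 times as follows. An unadjusted p below 0.0001 gave 0 in M8/F8, 3 in M8/M3, 3 in M8/M4 and 0 for M8/M3 minus F8/F3. Without the threshold on the ratio there were 4 in M8/F8, 6 in F8/F3 and 5 in F8/F4. The mean over all probes gave 1 in M8/F8, normexp with loess gave 3 in M8/M3, and error-weighted averages gave 1 in F8/F4. With 6 group means there were 3 for M8/M3 minus F8/F3 (Cdkn1a and Cdkn2c added), 1 for M8/M4 minus F8/F4 (Ccnd1), 2 in M4/M3 and 1 in F4/F3. The model with shared pools gave 2 in M4/M3, and all probes adjusted gave 0 for M8/M3 minus F8/F3. The cause of these moves was not tested. Leaving out each array in turn gave 2 to 3 in M8/F8, 4 to 5 in M8/M3 and in M8/M4, 3 in F8/F3, 2 to 3 in F8/F4, and 0 to 1 for M8/M3 minus F8/F3. The remaining counts stayed at 0. Over all named genes, the main fit called 2735 from 3 wk in male and 1863 in female liver. Fewer were called by normexp with loess (1429 and 1332) and at an unadjusted p below 0.0001 (1630 and 1006), and more without the threshold on the ratio (6377 and 5294).

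With the replicate block in place of the dye term, or beside it, the counts were those of the dye term, 2 in M8/F8, 5 in M8/M3 and M8/M4, 3 in F8/F3 and F8/F4 and 1 for M8/M3 minus F8/F3. Comparisons with a group in common appeared to share same-numbered pools. Of 21 pairs of comparisons 11 had replicate deviations correlated above 0.1. These included pairs with no group in common, such as M4/F4 with M8/F8 (0.21), so that this count does not bear on pool reuse. Over all pairs r ranged from -0.56 (M8/F8 with F8/F3, with F8 on opposite sides of the ratio) to 0.69 (M8/M3 with M8/M4). Within a comparison the replicate number coincides with the dye orientation and the slide. With 2 arrays per comparison and dim probes for Ccne2 and the second Ccne1 and Cdkn1a probes, differences of these transcripts are not resolved below about the errors given.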
